A study of Mus musculus with 10 samples.

Results

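The 10 genes described here are the immediate early genes Fos, Fosb, Jun, Junb, Jund, Egr1, Atf3, Ier2, Klf6 and Klf4, taken by gene name from 2 deposited RNA sequencing tables. All 10 were listed in both tables, among 23202 genes in the table of sorted macrophages and 19720 in the table of whole tumors, and all 10 had a mean of at least 1 CPM (a gene's reads among each 1000000 counted) in each. They were picked with their difference between sorted cells and whole tumor already known, so that difference is given as a description without a test. The samples came from 6 mice of the MMTV-PyMT line, in which a viral oncogene driven in mammary epithelium gives mammary tumors. Per the labels, all mice were on a B6 background, carried MMTV-PyMT and floxed Cxcr4 alleles (Cxcr4fl/fl), and were 15 weeks old at harvest. Mice called cKO here also carried LysmCre, a Cre recombinase driven by the lysozyme M gene of myeloid cells, and controls were littermates without Cre. Cxcr4 encodes the receptor of the chemokine CXCL12. The sorted table holds 3 cKO libraries (mice 725, 746 and 867) and 3 control libraries (mice 706, 720 and 775) of cells that were stained for F4/80 and CD11b and sorted from tumors. The whole-tumor table holds 2 cKO libraries (mice 725 and 746) and 2 control libraries (mice 706 and 720), so 4 mice have a library of each kind. Tumor pairs were matched for size by the submitters, without partners being named.

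Immediate early genes are transcribed within minutes of a stimulus, without the need for new protein synthesis, because the transcription factors that switch them on are already present and are activated by kinases. Growth factors, cytokines, adhesion, heat and mechanical or enzymatic handling of tissue are all known triggers, and in macrophages inflammatory ligands also act on them. Fos and Jun family proteins pair through leucine zippers to form the AP-1 transcription factor, which binds DNA elements in many later response genes. Most such transcripts are short-lived, so the level of those follows recent transcription closely.

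The regulatory sequence next to the start site is shown for Fos, Fosb, Junb and Atf3, the 4 genes that hold the letters TGACG within the 150 bases before the start, a choice made after the search. RefSeq promoter windows (GRCm38.p6, from 250 bases before to 50 bases after the start) were available for 8 of the 10 genes, all but Egr1 and Ier2. Each line gives the 150 bases before the start, 5′ to 3′ on the gene's strand, with TGACG or its reverse complement in capitals. TGACG is part of the cAMP response element TGACGTCA, which factors of the CREB and ATF families bind. Fos is at chr12:85473740-85473889 on the plus strand, Fosb at chr7:19310046-19310195 on the minus strand, Junb at chr8:84978749-84978898 on the minus strand and Atf3 at chr1:191183334-191183483 on the minus strand.
Fos: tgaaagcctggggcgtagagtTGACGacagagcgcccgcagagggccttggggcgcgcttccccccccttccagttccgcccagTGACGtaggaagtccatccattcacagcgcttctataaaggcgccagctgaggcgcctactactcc
Fosb: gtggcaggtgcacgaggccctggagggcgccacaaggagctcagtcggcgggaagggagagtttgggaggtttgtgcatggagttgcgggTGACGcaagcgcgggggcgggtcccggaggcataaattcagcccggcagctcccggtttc
Junb: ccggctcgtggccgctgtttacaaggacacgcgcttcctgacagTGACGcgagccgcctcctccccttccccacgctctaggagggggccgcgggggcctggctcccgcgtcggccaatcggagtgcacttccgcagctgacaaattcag
Atf3: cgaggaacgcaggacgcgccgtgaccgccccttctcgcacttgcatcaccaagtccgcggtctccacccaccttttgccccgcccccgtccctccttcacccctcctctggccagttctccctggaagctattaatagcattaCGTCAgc
TGACG, searched on both strands of the full 300-base windows, was present in 5 of the 8 genes and in 20.8% of the 32851 windows of the RefSeq table. Fos held it at -129 and at -66 from the start, Fosb at -60, Junb at -106, and Atf3 on the opposite strand at -7. Klf4 held it on the opposite strand at -232, outside the stretch shown. The full element TGACGTCA was in 0 of the 8 windows (1.79% of all windows), an AP-1 site written TGACTCA or TGAGTCA in 0 (5.2%), and a CArG box, the core of the serum response element, in 0 (1.63%). Sequence more than 250 bases before the start, and any sequence of Egr1 and Ier2, was not searched, so elements there would be missed. TATAAA was in the windows of Fos and Junb (13.6% of all windows), at -33 to -28 in Fos but at 1 to 6, not before the start, in Junb. The GC content of the windows was 58.7% for Fos, 68.3% for Fosb, 65.3% for Junb and 64.7% for Atf3, against a median of 52.7% over all windows. In the windows not shown it was 60% for Jun, 63% for Klf6 and 74.3% for Klf4. For Jund it was 46.7%, below that median. The RefSeq start of Atf3 used here lies 34706 bases inside the gene as GENCODE vM21 draws it. That of Junb lies 30 bases before the GENCODE start. The Jund window ends at 70697788 on chromosome 8, before the GENCODE start of Jund at 70698949. The motif results for Jund therefore do not cover the sequence next to that GENCODE start. These matches describe letters only, and no binding was measured in these samples.

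In GENCODE vM21 on GRCm38, Fos is on chromosome 12 (85473890 to 85477273), Fosb on chromosome 7 (19302696 to 19310051), Jun on chromosome 4 (95049034 to 95052222) and Atf3 on chromosome 1 (191170296 to 191218039). Chromosome 8 carries Junb (84974484 to 84978718), Jund (70698949 to 70700616) and Ier2 (84661331 to 84662852). Klf6 is on chromosome 13 (5861482 to 5870394), Klf4 on chromosome 4 (55527143 to 55532466) and Egr1 on chromosome 18. Jun, Jund and Ier2 are single-exon genes in this annotation. Jun overlaps the antisense RNA Junos and Junb overlaps Prdx2 on the opposite strand, and whether reads were counted by strand is not given in the sources used here, so both genes' levels are uncertain to that extent. Junos stood at 7.14 ± 3.04 CPM in the sorted libraries (SD, n = 6) and 2.89 ± 3.01 CPM in the tumors (SD, n = 4). Prdx2 stood at 52.9 ± 13.8 and 38.2 ± 6.15 CPM.

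Library depth, inferred from the step between low values, was 14.4 to 25.2 M reads (M, 1000000 reads) in the sorted libraries and 34.2 to 53.4 M reads in the tumors. The sorted cells carried the markers of their label: 8 of 8 macrophage markers were higher in all 6 sorted libraries than in all 4 tumors, and their summed level was 833.7 to 1935 CPM in sorted cells. In tumors 7 of the 8 summed to 83.3 to 95.96 CPM, leaving out Fcgr1, which had a mean of 0.358 CPM there and so fell below the minimum of 1 CPM. Among them Adgre1, which encodes F4/80, was higher by 4.36 ± 0.25, Itgam, which encodes CD11b, by 3.96 ± 0.437, and Csf1r by 4.47 ± 0.283 log2 units (SD over 4 mice). Epithelial markers were not depleted, with 3510 to 7229 CPM summed over 6 genes in the sorted libraries and 5258 to 7330 CPM in the tumors. Csn3 alone had a mean of 3186 CPM in sorted cells and 5261 CPM in tumors of the shared mice, a difference of -0.82 ± 0.52 log2 units. Of these markers, 4 of the 6 were higher in all sorted libraries: Krt8 by 2.62, Krt19 by 2.6, Krt18 by 1.86 and Cdh1 by 0.66 log2 units. Epcam differed by 0.39 ± 0.52 log2 units, and the median of the 6 was 1.26. Control library 775 had the lowest macrophage marker sum, and cKO library 867 had the highest sums of fibroblast and endothelial markers (1012 and 248.3 CPM over 5 genes each). Cxcr4 itself, the gene the Cre is meant to delete, showed no fall under the cKO label: it stood at 77.1 ± 76.8 CPM against 68.0 ± 61.7 CPM in sorted cells (SD, n = 3 each) and at 52.7 ± 6.83 against 31.6 ± 2.52 CPM in tumors (SD, n = 2 each). Its log2 difference was 0.21 in sorted cells (limma adjusted p = 0.9998) and 0.72 in tumors (limma adjusted p = 0.8193). Directions by genotype below therefore refer to the libraries as labelled.

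All 10 immediate early genes were higher in sorted cells than in whole tumor, in every library: for each gene the lowest of the 6 sorted libraries lay above the highest of the 4 tumors. The same held for 18.6% of the 16221 genes compared, and 3.9% were lower in all sorted libraries. Since the genes were picked on this contrast, nothing is read from their count. Together the 10 genes made up 0.912% to 1.33% of all counted reads in the sorted libraries (9117 to 13339 CPM) and 0.026% to 0.0403% in the tumors (260.0 to 402.8 CPM). Between the sorted and tumor libraries of the same mouse, the median difference over the 10 genes was 4.51 log2 units of CPM + 1, and over all genes compared it was 0.39. When CPM were rescaled to protein-coding genes, the median of all genes was -0.05 and that of the 10 genes 4.01, and all 10 remained higher in every sorted library. The sorted cells had been through mechanical dissociation, collagenase D, DNase I and antibody sorting, whereas the tumors were snap frozen and homogenized. Cell type and handling thus differ together between the tables and cannot be told apart, nor can fewer cells of a type be told apart from less RNA per cell in bulk samples. The tables were also normalized separately.

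**Figure D1:**
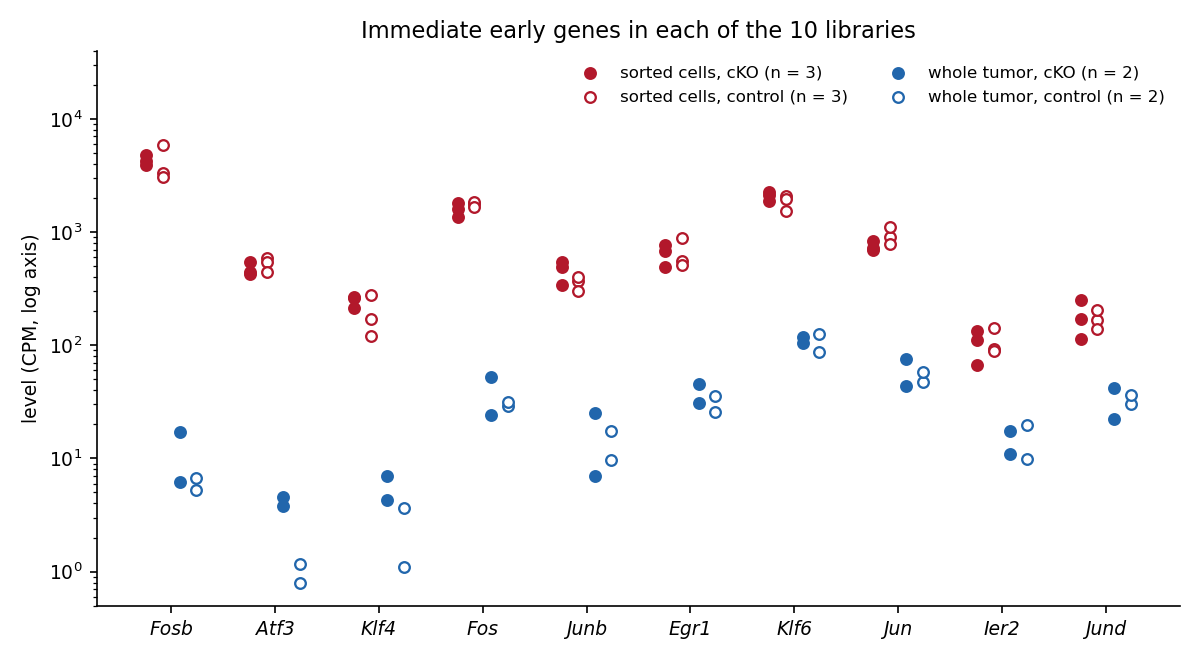
Level of each of the 10 genes in CPM (log axis) in the 6 sorted libraries (red) and 4 whole tumors (blue), with cKO libraries filled and controls open. Each point is 1 library; for every gene all red points lie above all blue points, with the widest gap for Fosb and Atf3.

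Fosb had the largest difference of the 10, and Fos, of the same family, came after Atf3 and Klf4. Fosb, an AP-1 subunit that pairs with Jun proteins, was at 3944, 4750 and 4255 CPM in sorted cKO libraries 725, 746 and 867 and at 3332, 5922 and 3097 CPM in sorted controls 706, 720 and 775. In whole tumors it was at 6.18 and 16.95 CPM in cKO mice 725 and 746 and at 6.73 and 5.22 CPM in controls 706 and 720. Sorted control 720 was the highest and tumor 746 stood above the other tumors. Within a mouse the ratio of CPM ran from 280-fold in mouse 746 to 1135-fold in mouse 720, a mean difference of 8.95 ± 0.77 log2 units (SD, n = 4), the largest of 12828 protein-coding genes. Fos, the founding AP-1 subunit of the family, was at 1595, 1351 and 1793 CPM in sorted cKO libraries 725, 746 and 867 and at 1758, 1835 and 1654 CPM in controls 706, 720 and 775. In tumors Fos was at 24.3 and 52.1 CPM in cKO mice 725 and 746 and at 29.0 and 31.6 CPM in controls 706 and 720. Its spread among sorted libraries was small, and its tumor values set mouse 746 apart. The same-mouse difference was 5.59 ± 0.61 log2 units, at rank 20 of the protein-coding genes.

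The 3 Jun family genes, whose proteins are the obligate partners of Fos proteins and can also pair with each other, fell in the order Junb, Jun, Jund. Jun was at 700.0, 725.1 and 837.1 CPM in sorted cKO libraries and at 897.8, 1104 and 787.5 CPM in sorted controls, in the mouse order used above. In tumors it was at 43.2 and 75.9 CPM (cKO) and 47.7 and 58.3 CPM (control). The highest sorted value was again that of control 720 and the highest tumor value that of 746. Junb, which has weaker activating power than Jun on many AP-1 targets, was at 337.5, 540.6 and 494.7 CPM in sorted cKO libraries and at 366.9, 399.7 and 303.8 CPM in sorted controls. Its tumor values were 7.005 and 25.3 CPM (cKO) and 17.6 and 9.77 CPM (control), a wide spread within both genotypes. Jund, the family member that most resting cells express constitutively, was at 113.1, 252.9 and 171.1 CPM in sorted cKO libraries and at 166.2, 204.8 and 137.8 CPM in sorted controls. In tumors Jund was at 22.3 and 42.1 CPM (cKO) and 30.2 and 36.7 CPM (control). Mouse 746 was the highest and mouse 725 the lowest for Jund in both tables. Same-mouse differences were 4.82 ± 0.57 log2 units for Junb, 3.91 ± 0.46 for Jun and 2.43 ± 0.11 for Jund. Jund had the smallest difference of the 10 genes, at 5.08-fold to 6.01-fold in CPM, and also the most even one across mice. Among the protein-coding genes Junb was at rank 56, Jun at 192 and Jund at 713.

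Egr1, a zinc finger activator induced through serum response factor, was at 491.6, 676.4 and 765.9 CPM in sorted cKO libraries and at 553.0, 881.6 and 508.3 CPM in sorted controls. In tumors it was at 31.0 and 45.4 CPM (cKO) and 25.6 and 35.6 CPM (control). Its difference was 4.20 ± 0.35 log2 units, at rank 140 of the protein-coding genes and close to the 4.36 of Adgre1. Atf3, a stress-induced factor of the ATF family that can repress inflammatory genes in macrophages, was at 422.9, 547.4 and 443.8 CPM in sorted cKO libraries and at 584.5, 547.7 and 444.0 CPM in sorted controls. In tumors Atf3 was at 3.78 and 4.58 CPM (cKO) and at 0.790 and 1.18 CPM (control). Against sorted levels that stayed within a narrow range, the tumor levels fell into a higher cKO pair and a lower control pair, as did those of 21.2% of all genes tested in tumors. The level in each control tumor still lay above the 0.0878 and 0.0860 CPM that 3 reads make up there. The Atf3 difference was 7.36 ± 0.95 log2 units, at rank 3 of the protein-coding genes, and was 7.94 with a pseudocount of 0.1 and 6.15 with one of 5. Ier2, a short nuclear early response protein, was at 66.6, 134.5 and 111.4 CPM in sorted cKO libraries and at 142.1, 93.3 and 88.3 CPM in sorted controls. In tumors it was at 11.0 and 17.5 CPM (cKO) and 19.7 and 9.80 CPM (control). Its difference, 2.82 ± 0.26 log2 units, was the second smallest of the 10, at rank 512 of the protein-coding genes.

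The remaining 2 genes encode Krüppel-like zinc finger factors. Klf6, which is broadly expressed and prominent in myeloid cells, was at 2109, 1870 and 2255 CPM in sorted cKO libraries and at 1539, 2072 and 1975 CPM in sorted controls. In tumors it was the most abundant of the 10 in CPM, at 104.3 and 118.7 CPM (cKO) and 86.4 and 126.6 CPM (control). Its difference of 4.11 ± 0.16 log2 units, at rank 152 of the protein-coding genes, varied little between mice. Klf4, which takes part in monocyte differentiation and in macrophage polarization, was at 215.0, 262.5 and 266.6 CPM in sorted cKO libraries and at 169.9, 279.6 and 120.9 CPM in sorted controls. In tumors Klf4 was at 6.97 and 4.29 CPM (cKO) and at 3.66 and 1.09 CPM (control). The lowest tumor value, in control 720, came from the mouse with the highest sorted value, and the difference of 5.67 ± 1 log2 units had the widest spread of the 10. This difference of Klf4 was at rank 18 of the protein-coding genes. It was 6.05 with a pseudocount of 0.1 and 4.73 with one of 5, the latter below the 5.42 of Fos at that setting.

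The macrophage markers, measured in the same libraries, give a scale for these differences. They ranged from 2.04 log2 units for Mrc1 to 5.22 for C1qa, with a median of 4.30. Fosb and Atf3 exceeded each of the 8 macrophage markers in all 4 mice. The number of markers exceeded in all 4 mice was 6 for Klf4, 5 for Fos, 4 for Junb, 1 each for Jun, Egr1, Ier2 and Klf6, and 0 for Jund. A gene could exceed further markers in some of the mice only, as Jund did Mrc1 in mice 706, 725 and 746. Whether the genes' differences follow from the share of macrophages was not tested.

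**Figure D2:**
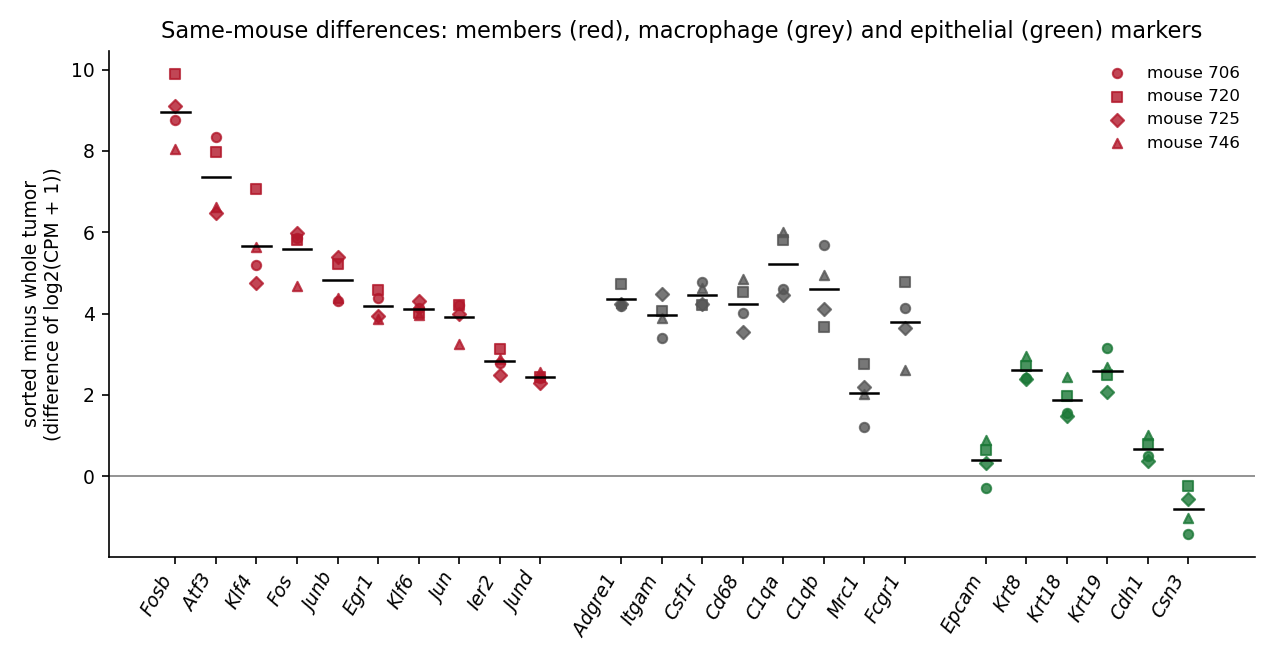
Sorted minus whole-tumor difference of log2(CPM + 1) within each of the 4 mice that have both libraries (symbols), with the mean as a black bar, for the 10 genes (red), 8 macrophage markers (grey) and 6 epithelial markers (green). Fosb and Atf3 lie above all macrophage markers in each mouse, and Jund and Ier2 lie below most of them.

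Other genes of the same response were looked up from lists drawn up for this purpose, and the background of 18.6% above gives a scale. The lists, too, were chosen with earlier results of these data known. Their counts, here and in the next paragraph, are therefore descriptions without a test, and nothing is read from them. Of the EGR and NR4A genes, which encode zinc finger factors, orphan nuclear receptors and their corepressors, 6 of 7 were higher in all sorted libraries (median difference 3.02 log2 units). Nr4a1 was at 415.4 ± 103.1 CPM in sorted cells (SD, n = 6) and 15.1 ± 3.44 CPM in tumors (SD, n = 4), and Nr4a3 at 239.9 ± 96.3 and 3.13 ± 0.79 CPM. Feedback genes, whose products dephosphorylate kinases, destabilize early transcripts or hold back NF-κB, were higher in 13 of 17 (median 3.25). Zfp36, which binds and destabilizes AU-rich transcripts, was at 946.2 ± 99.6 and 23.98 ± 7.81 CPM, and Btg2, an antiproliferative adaptor of deadenylation, at 1034 ± 98.8 and 47.1 ± 13.2 CPM. Other early response genes were higher in 17 of 22 (median 3.13), among them Trib1, a pseudokinase (833.9 ± 227.5 and 162.9 ± 17.6 CPM), and Sik1, a salt-inducible kinase (575.3 ± 127.6 and 34.9 ± 5.64 CPM).

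The remaining AP-1 and ATF family genes were higher in 7 of 12 (median 1.94, below the 2.43 of Jund). Fosl2 differed by 2.07 ± 0.25 log2 units and Atf4, a translationally controlled stress factor, by 2.17 ± 0.63. The other KLF genes were higher in 5 of 11 (median 0.90), with Klf13 at 1.42 ± 0.45 and Klf10 at 2.52 ± 0.83. The kinases and serum response factors that act upstream were higher in 5 of 18 and lower in 1 (median 0.51). Mapkapk2, a kinase downstream of p38, differed by 1.86 ± 0.36, and Rps6ka3, an ERK-activated kinase, by -0.16 ± 0.23. Heat shock genes, a separate stress response, were higher in 9 of 11, with a median of 1.17 and a range from -0.559 to 4.82. The constitutive chaperone Hspa8 differed by 2.67 ± 0.13 and Hsp90ab1 by 1.17 ± 0.32.

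Per kilobase of exon, the 10 genes also stood in a different order in the sorted cells and in the tumors. In sorted cells Fos led at a mean of 707.6 CPM per kb, then Fosb at 675.4, Klf6 at 448.6, Jun at 264.0, Atf3 at 231.4, Junb at 177.0, Egr1 at 144.1, Jund at 104.5, Klf4 at 71.9 and Ier2 at 69.7. Fos and Fosb were not separated, with Fos higher in 4 of 6 libraries, and neither were Klf4 and Ier2, with Klf4 higher in 3 of 6. Both Fos and Fosb were above Klf6 in 6 of 6 libraries, and each neighbouring pair from Jun down to Klf4 kept its order in 5 of 6. In tumors Klf6 led at 24.8 CPM per kb, then Jund at 19.7, Jun at 17.7, Fos at 14.6, Ier2 at 9.53, Egr1 at 7.67, Junb at 6.48, Fosb at 1.41, Klf4 at 1.31 and Atf3 at 1.198. Fosb, Klf4 and Atf3 were not separated from each other there, and Junb was above Fosb in 4 of 4 tumors. Among protein-coding genes the sorted levels per kb ranked from 29 (Fos) to 305 (Ier2) of 15120, and the tumor levels from 720 (Klf6) to 9165 (Atf3) of 14089. The lengths are unions of all annotated exons, which is 6243 bases for Fosb against 3782 bases for its longest coding transcript.

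Ratios of genes within a library do not depend on how the library was scaled. Set between sorted cells and tumors, however, they restate the contrast on which the genes were picked. The share of other gene pairs with separate ranges was not worked out, so nothing is read from whether ranges overlap. Fosb to Fos per kb was 0.706 to 1.32 in the 6 sorted libraries and 0.0623 to 0.123 in the 4 tumors, and the ranges did not overlap. The ratios and their pairs were not part of the plan, and a second length, the longest coding transcript, was added after the data were seen. With that length the median Fosb to Fos ratio was 1.35 in sorted cells and 0.136 in tumors. Fosb then stood above Fos in sorted cells. Jun to Jund was 1.5 to 3.24 against 0.826 to 1.02, and Junb to Jund was 1.41 to 2.16 against 0.193 to 0.435. In sorted cells Jun and Junb each exceeded Jund per kb in 6 of 6 libraries. Fos to Jun was 2.25 to 3.09 against 0.734 to 0.930, and Fos to Egr1 was 3.81 to 6.20 against 1.49 to 2.19. For Ier2 to Jund (0.5 to 0.937 against 0.293 to 0.716) and Klf6 to Klf4 (4.95 to 11.3 against 10.4 to 80.7) the ranges overlapped.

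**Figure D3:**
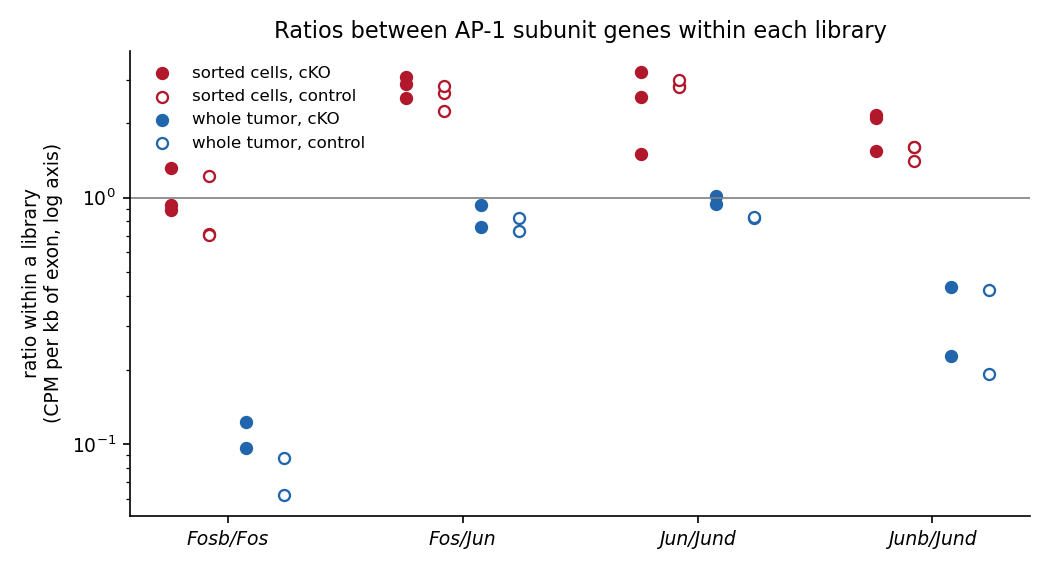
Ratio of CPM per kilobase of exon between pairs of AP-1 genes within each library (log axis), for sorted cells (red) and whole tumors (blue), cKO filled and control open. Each point is 1 library; for all 4 pairs the sorted libraries lie above the tumors, and the grey line marks equal levels.

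The 10 genes did not all vary together from library to library. In sorted cells, control 720 was the highest library for 5 of the 10 (Fos, Fosb, Jun, Egr1 and Klf4), as it was for 19.4% of all genes tested in that table. The cKO library 725 was the lowest for 5 (Jun, Jund, Egr1, Atf3 and Ier2), as for 17.3% of all genes, and control 775 was the lowest for Fosb, Junb and Klf4. Averaged over the 10 genes, the deviation from the table's mean was 0.235 log2 units in 720, 0.162 in 746, 0.129 in 867, -0.039 in 706, -0.224 in 725 and -0.263 in 775. The mean deviation of the 8 macrophage markers was also highest in 720 (0.423) and lowest in 775 (-0.831). The part of the macrophage share in this order was not tested. In tumors, cKO mouse 746 was the highest for 7 of the 10 (Fos, Fosb, Jun, Junb, Jund, Egr1 and Atf3), as for 30% of all genes tested, with a mean deviation of 0.529 against -0.252 to -0.129 in the other 3. That tumor's sum over 7 macrophage markers was the lowest of the 4, at 83.3 CPM.

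**Figure D4:**
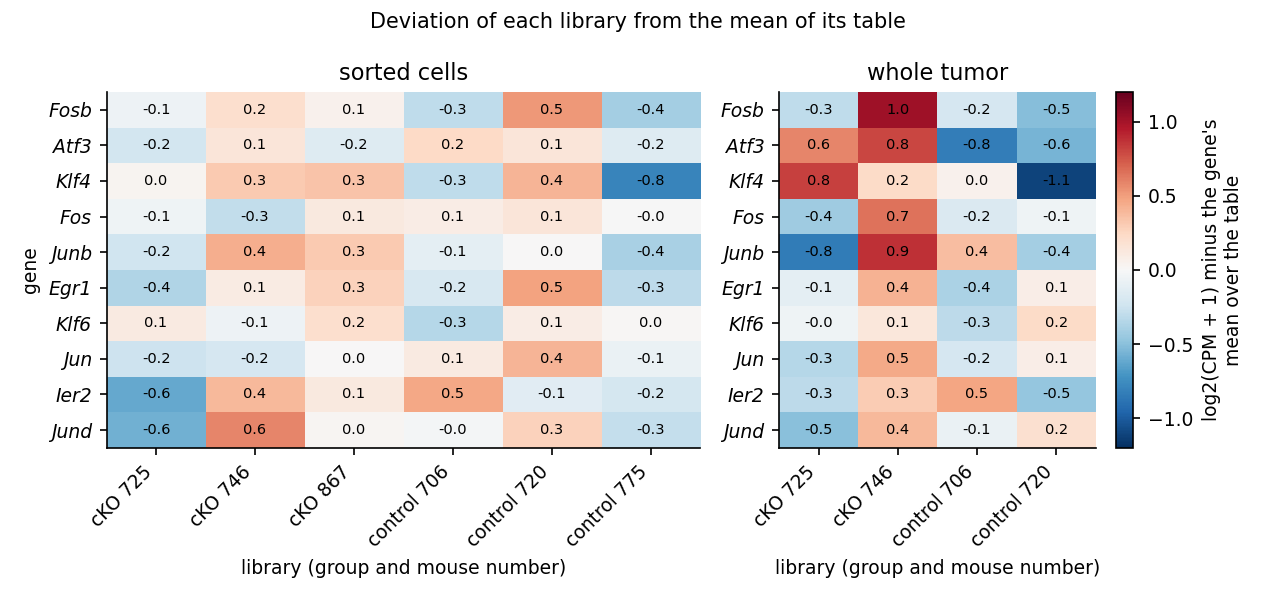
Deviation of each library from the gene's mean over its own table, in log2(CPM + 1), for sorted cells (left) and whole tumors (right); red is above and blue below the mean, and each cell prints its value. Tumor 746 is red for all 10 genes, and in sorted cells 720 is mostly red while 725 and 775 are mostly blue.

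The scale of this variation differed between the tables. The median SD over libraries was 0.331 log2 units for the 10 genes in sorted cells, against 0.291 for all genes with at least 100 CPM there. In tumors it was 0.46 for the 10 genes, against 0.194 for genes with at least 100 CPM and 0.485 for all genes tested, most of the 10 having levels well under 100 CPM there.

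The genes whose level over the 6 sorted libraries most resembled the mean of the 10 were Sulf2, Ube4b, Irak2, Sf1 and Prrc2a, with Pearson r of 0.997, 0.995, 0.995, 0.992 and 0.99 among 9990 genes. All 5 were lowest in 775 and highest in 720. With 6 libraries, 262 of those genes (2.62%) reached an r of 0.9, so the likeness is a description of 6 points that share libraries and depth.

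The comparison the study was designed for, cKO against control, showed no difference that passed the test for any of the 10 genes in sorted cells. Fitted with limma over 16304 genes, 0 genes passed at an adjusted p of 0.05 (0% of genes, lowest adjusted p = 0.9998), and 2.63% had an unadjusted p under 0.05. Of the 10, 0 had an unadjusted p under 0.05, and 6 had positive and 4 negative differences with a median of 0.02 log2 units, against 0.05 for all genes. Klf4 had the largest difference, with 248.0 ± 28.7 CPM in cKO and 190.2 ± 81.3 CPM in control libraries (SD, n = 3 each). The log2 difference was 0.46, the 95% interval -0.12 to 1.04 and limma's adjusted p 0.9998. Library 775 contributed the lowest Klf4 value and 720 the highest, and the difference was 0.18 without 775 and 0.78 without 720. Junb was at 457.6 ± 106.5 against 356.8 ± 48.8 CPM, a difference of 0.34 (interval -0.20 to 0.87), which was 0.20 without 746 and 0.54 without 725. Jun was at 754.1 ± 73.0 against 929.6 ± 160.4 CPM, a difference of -0.29 (interval -0.84 to 0.25).

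For the other 7 genes the sorted differences ran from -0.16 (Atf3) to 0.17 (Klf6), and their 95% intervals reached at most 0.90 upward (Fosb) and -0.75 downward (Fos). Fosb was at 4316 ± 407 against 4117 ± 1567 CPM, Fos at 1580 ± 221 against 1749 ± 90.7 CPM and Egr1 at 644.7 ± 139.9 against 647.6 ± 203.8 CPM. The groups overlapped for all 10 genes. Over all genes, 3.78% had every cKO library above every control and 3.45% every cKO library below.

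In whole tumors 0 of 14630 genes passed (0%, lowest limma adjusted p = 0.4921), and 5.85% had an unadjusted p under 0.05. The 10 genes had 8 positive and 2 negative differences with a median of 0.17 log2 units, against 0.09 for all genes, and 0 with an unadjusted p under 0.05. Atf3 and Klf4 were the only 2 of the 10 with both cKO tumors above both controls, a pattern seen in 21.2% of all genes (14.3% had both cKO tumors below). Atf3 was at 4.18 ± 0.56 CPM in cKO and 0.983 ± 0.272 CPM in control tumors (SD, n = 2 each). Its log2 difference was 1.39 (SE 0.86), its 95% interval ran from -0.43 to 3.2, and limma gave an adjusted p of 0.8378. Klf4 was at 5.63 ± 1.89 against 2.37 ± 1.82 CPM, a difference of 1.06 (interval -0.64 to 2.76), which was 0.48 without control 720 and 1.64 without control 706. At these low levels the pseudocount also moved both differences: with 0.1 and 5 in place of 1 that of Atf3 was 2 and 0.62, and that of Klf4 was 1.4 and 0.54. Next came Fosb, at 11.6 ± 7.61 against 5.97 ± 1.07 CPM and a difference of 0.71 (interval -0.62 to 2.04), which rested on tumor 746: the difference was 0.05 without it and 1.37 without 725. For the other 7 genes the tumor differences lay between -0.11 (Jund) and 0.30 (Egr1).

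**Figure D5:**
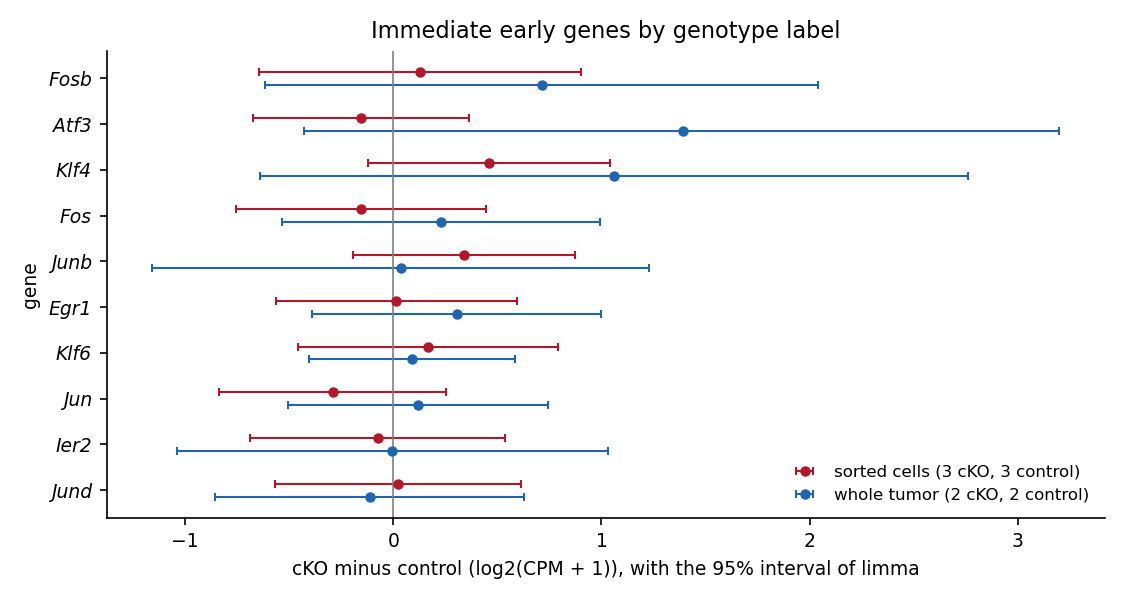
Difference cKO minus control in log2(CPM + 1) for each of the 10 genes, with the 95% interval from limma, in sorted cells (red, 3 against 3 libraries) and whole tumors (blue, 2 against 2). All 20 intervals include 0; the widest are those of Atf3 and Klf4 in tumors.

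No gene of the related lists passed limma's test by genotype label. In sorted cells 0 of 13 other AP-1 and ATF genes, 0 of 8 EGR and NR4A genes, 0 of 11 other KLF genes, 0 of 22 other early response genes, 0 of 18 feedback genes, 0 of 18 upstream genes and 0 of 11 heat shock genes passed in either direction, with medians from -0.05 (heat shock) to 0.35 (other KLF). In tumors 0 of 11, 7, 11, 19, 17, 18 and 11 genes of those lists passed, with medians from -0.23 (feedback) to 0.27 (other KLF).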

How the data were processed

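RNA sequencing was done on sorted macrophages and whole tumors after depletion of ribosomal RNA, per the labels' protocols. The submitters' processing notes name STAR 2.7.8a, Partek, GRCm38 and mm10; the counting program is not given in the sources used here. The deposited values are log2 of CPM + 1: 2 to the power of the value, minus 1, summed to 1000000 in each library. The authors' 2 tables were normalized separately, so no test was run across them. Few gene starts in the tables matched GRCm38 (2.19% and 2.29%), so positions and exon lengths came from GENCODE vM21 by gene identifier. Steps between low values gave the depth, but only 86.5% to 89% of values came out as whole reads (tolerance 0.1), so no count test was run.

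Genes averaging 1 CPM or more over a table were tested, cKO minus control, in each table alone with limma 3.58.1 in R 4.3.3 (linear model and moderated statistic with intensity trend, two-sided), with Benjamini-Hochberg adjustment and a threshold of 0.05. The script was tested on simulated data first. Fold changes are on the log2(CPM + 1) scale, which understates changes of low genes. The n in each group is the number of mice. Alternatives were other pseudocounts (0.1 and 5), filters, scalings, variance models, library weights and leaving out each library. Named besides the 10 genes were Cxcr4, Adgre1, Itgam, Csf1r and Epcam, the 2 highest genes of each list in sorted cells, and the 5 protein-coding genes most correlated with the mean of the 10 over the 6 sorted libraries, among genes averaging 5 CPM or more. Other markers were named after their values were seen. The genes and lists were chosen with earlier results of these data known.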

Additional observations from a re-analysis of the deposited data

How the results depend on the processing

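No paired analysis was possible because cKO and control mice share no mouse number; mice pair the sorted and tumor libraries only, and those same-mouse differences are given without a test. All 10 genes were higher in every sorted library than in every tumor under all alternatives run, and the median sorted-minus-tumor difference of 4.51 became 4.01 with protein-coding scaling and 4.05 with median-ratio factors (4.42 to 4.64 with a mouse left out). For cKO minus control, no gene passed in the sorted table except without control 775 (range 0 to 3 over left-out libraries), when Sparc, Amd2 and Gm4735 did, genes named after their values were seen. In tumors 0 passed under any alternative. None of the 10 genes passed in any alternative (lowest limma adjusted p = 0.962 in sorted cells and 0.585 in tumors). At a minimum of 5 CPM, Atf3 and Klf4 were not tested in tumors.

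Several small differences changed sign. In sorted cells, with trimmed-mean factors, median-ratio factors, protein-coding scaling and library weights, Jund became -0.00177, -0.00734, -0.0431 and -0.0626, and Egr1 -0.00936, -0.015, -0.0509 and -0.0235. With a library left out, Jund ranged from -0.265 to 0.312, Egr1 from -0.139 to 0.257, Fosb from -0.0457 to 0.422 and Ier2 from -0.288 to 0.214, and the median of the 10 from -0.129 to 0.207. In tumors, Junb became -0.0205, -0.041 and -0.0832 with the first 3 of those settings, and Klf6 -0.0282 with protein-coding scaling. With a tumor left out, Fos ranged from -0.308 to 0.764, Jun from -0.281 to 0.517, Junb from -0.821 to 0.894, Jund from -0.558 to 0.331, Ier2 from -0.477 to 0.463 and Klf6 from -0.184 to 0.362. The tumor median was 0.668 without 725 and -0.142 without 746. The cause was not tested. With 2 or 3 mice a group, the 95% intervals given above bound what these data can show.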
